A study of Homo sapiens with 3 samples.

Results

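Aminoacyl-tRNA synthetases attach each amino acid to its transfer RNA (tRNA) before translation. The genes examined were the 36 cytosolic and mitochondrial synthetase genes of a listed family, out of 20033 human protein-coding genes, and all 36 symbols matched the annotation. The list held 20 cytosolic enzymes and 16 mitochondrial enzymes, and GARS1 and KARS1, whose products serve both compartments, were counted as cytosolic. Occupancy was read from chromatin immunoprecipitation followed by sequencing (ChIP-seq) of CHD8, a chromatin remodeler, and of TRRAP, a scaffold of histone acetyltransferase complexes. The neural stem cells were wild type and came from the established human embryonic line H9. They were grown with EGF and FGF and crosslinked with 2 mM disuccinimidyl glutarate and 1% formaldehyde. Each antibody had 1 library and 1 peak list, of 23393 peaks for CHD8 and 14735 for TRRAP, while another library, made with IgG, was not analysed here. How many reads each list rests on is unknown. With 1 library per antibody no test between conditions was possible, and intervals on shares are Wilson 95% intervals that cover counting error over genes only.

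Both sets of enzymes are encoded in the nucleus. The cytosolic set translates the nuclear genome's messenger RNAs, and the mitochondrial set is imported to translate the few proteins of the respiratory chain that mitochondrial DNA encodes. Several cytosolic enzymes assemble into the multi-synthetase complex, held together by the scaffold proteins AIMP1, AIMP2 and EEF1E1. Many cytosolic synthetase genes are known targets of ATF4, the transcription factor of the amino acid response, which binds a composite C/EBP and ATF element (the CCAAT-enhancer-ATF response element). Nuclear genes for mitochondrial proteins are known targets of nuclear respiratory factor 1 (NRF1) and of ETS-family factors.

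The word whose share differed most between the compartments, the response element, and the NRF1 word are shown first, read from the GRCh38 reference on each gene's strand, 5′ to 3′. The response element was searched as TGATGNAA on both strands, without mismatch, from 250 bp before to 50 bp after the canonical start. It was found at 8 of 20 cytosolic genes, and the 30 bases around it are given with the element in capitals.
AARS1 (chr16:70289675-70289704, minus strand): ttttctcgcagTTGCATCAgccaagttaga
CARS1 (chr11:3057407-3057436, minus strand): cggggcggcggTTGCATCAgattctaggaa
GARS1 (chr7:30594834-30594863, plus strand): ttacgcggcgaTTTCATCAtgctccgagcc
IARS1 (chr9:92293692-92293721, minus strand): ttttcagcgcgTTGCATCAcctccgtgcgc
MARS1 (chr12:57488053-57488082, plus strand): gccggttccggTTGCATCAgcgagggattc
NARS1 (chr18:57621804-57621833, minus strand): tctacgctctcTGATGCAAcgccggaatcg
TARS1 (chr5:33440956-33440985, plus strand): gcgcctttcgaTTGCATCAgctggtccagc
YARS1 (chr1:32817337-32817366, minus strand): ccgagcccagcTGATGCAAcctggctggac

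The NRF1 word GCATGCGC was found at 3 of 16 mitochondrial genes and at 0 of 20 cytosolic genes. The 30 bases around each match are given with the word, or its palindromic extension, in capitals.
MARS2 (chr2:197705331-197705360, plus strand): gcgacccggctGCGCATGCGCctctcacac
VARS2 (chr6:30914204-30914233, plus strand): agccagctgctGCGCATGCGCcggccgggg
YARS2 (chr12:32755959-32755988, minus strand): aaccgtctcggGCATGCGCagaaaaacact

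CHD8 was found at every synthetase promoter and TRRAP at 19 of them. A deposited peak counted as a promoter peak if it reached within 1 kb of the canonical start. All 36 genes had a CHD8 promoter peak (100%, 90.4 to 100), beside 55.9% of all protein-coding genes. A TRRAP promoter peak was present at 19 of 36 (52.8%, 37.0 to 68.0), beside 34.9% of all protein-coding genes. Each of these 19 genes also had CHD8, so the share with both peaks was the same 52.8%, beside 34.0% of all genes. Among genes with CHD8 the background share with TRRAP was 60.7%, which lay inside the interval of the synthetase share.

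Most synthetase promoters were rich in CpG, and CpG content moves with both occupancies across the genome. Within 500 bp of the start in either direction, the ratio of observed to expected CpG was at least 0.6 at 33 of the 36 genes. Over all 13278 such CpG-rich genes, 77.7% had CHD8, 50.1% had TRRAP and 48.8% had both. Of the 33 CpG-rich synthetase genes, 33 had CHD8 (89.6 to 100) and 18 had both (54.5%, 38.0 to 70.2). The 3 genes below that ratio were RARS1 (ratio 0.593), TARS2 (0.584) and WARS1 (0.355), and all 3 had a CHD8 peak. RARS1 and TARS2 lay just below the cutoff. The WARS1 peak came no closer than 658 bp upstream, outside the stretch in which CpG was counted. The part of CpG content in these shares was not tested.

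**Figure D1:**
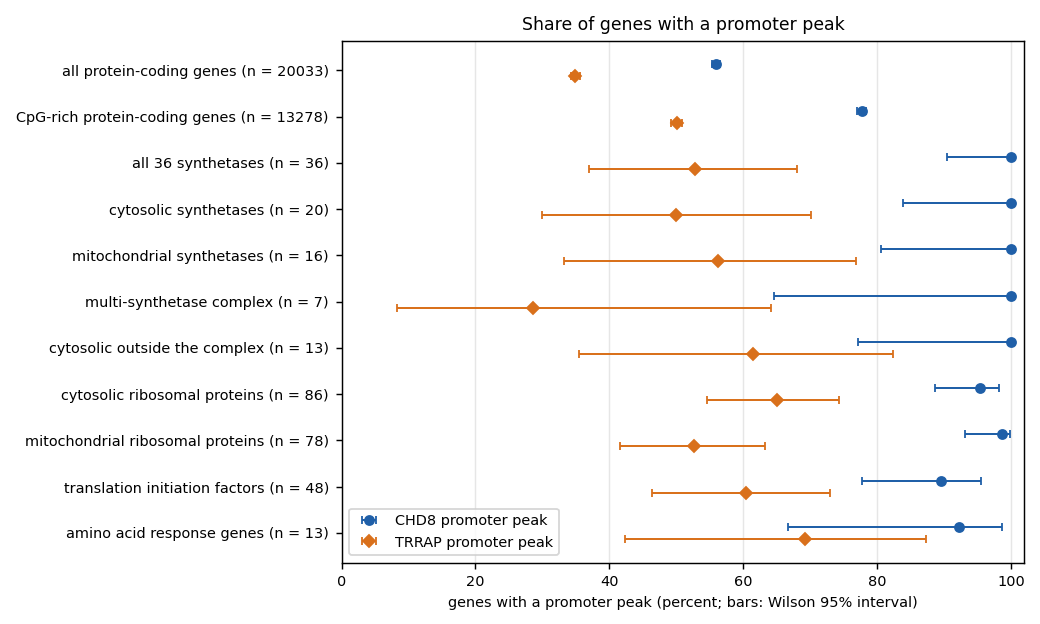
Percent of genes with a CHD8 promoter peak (circles) or a TRRAP promoter peak (diamonds) in each gene group, with Wilson 95% intervals as bars. The CHD8 share was 100% in both compartments, and the TRRAP intervals of the cytosolic and mitochondrial enzymes overlap almost entirely.

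No difference between the compartments was resolved in how many genes were occupied. CHD8 was present at 20 of 20 cytosolic genes (83.9 to 100) and at 16 of 16 mitochondrial genes (80.6 to 100). TRRAP was present at 10 of 20 cytosolic genes (50.0%, 29.9 to 70.1) and at 9 of 16 mitochondrial genes (56.2%, 33.2 to 76.9). The cytosolic share minus the mitochondrial share was −6.25 percentage points, and its Newcombe 95% interval, −35.0 to 24.3, spans large differences in either direction. With peaks above the median rank of each list, the direction turned: TRRAP was then at 45.0% of cytosolic and 31.2% of mitochondrial genes, a difference of 13.8 points (−17.2 to 40.7).

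The cytosolic genes with both peaks were AARS1, EPRS1, FARSB, GARS1, IARS1, SARS1, TARS1, TARS3, VARS1 and YARS1. Those with CHD8 alone were CARS1, FARSA, HARS1, KARS1, LARS1, MARS1, NARS1, QARS1, RARS1 and WARS1. The mitochondrial genes with both peaks were AARS2, CARS2, EARS2, FARS2, IARS2, NARS2, PARS2, TARS2 and WARS2, and those with CHD8 alone were HARS2, LARS2, MARS2, RARS2, SARS2, VARS2 and YARS2. No synthetase gene had TRRAP alone, and none had neither peak. At the 17 genes without a TRRAP promoter peak, the nearest TRRAP peak lay 4218 bp (FARSA) to 204722 bp (LARS2) from the start, with a median of 38227 bp, and at 15 of them it lay more than 20 kb away. A gene without a listed peak had no peak past the authors' threshold, which does not show that the protein is absent.

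Among the cytosolic genes, the strongest CHD8 promoter peaks were at KARS1, EPRS1 and WARS1. Values of a peak are the authors' own, and folds are linear ratios over the peak caller's background that are compared only within a list. KARS1, which charges lysine tRNAs in both compartments, had a CHD8 peak at chromosome 16, 75648196 to 75649305, with a fold of 29.2 (rank 686 of the list). That peak reached the KARS1 window from the side of its neighbour TERF2IP, with its summit 1038 bp upstream of the KARS1 start. A second CHD8 peak at KARS1, 75647320 to 75647946, had a fold of 20.8 and a summit 20 bp into the 5′ UTR of exon 1. EPRS1 encodes a fused enzyme for glutamate and proline. Its CHD8 peak at chromosome 1, 220046428 to 220046853, had a fold of 28.3 (rank 771), with the summit 135 bp upstream. WARS1, the tryptophan enzyme, had a fold of 21.2 (rank 1576) at chromosome 14, 100376005 to 100376795, but the summit lay 1065 bp upstream and the peak also touched the window of WDR25. WARS1 was the synthetase gene that lost its CHD8 peak with a window of 500 bp, or when the summit had to lie in the window.

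CARS1, MARS1, LARS1, RARS1 and FARSA, also with CHD8 alone, had folds between 11.1 and 14.2. CARS1, the cysteine enzyme, had a fold of 12.8 (rank 5815) at chromosome 11, 3057196 to 3057801. MARS1, the methionine enzyme, had a fold of 14.2 (rank 4648) at chromosome 12, 57487783 to 57488217, with the summit 179 bp upstream. LARS1, the leucine enzyme, had a fold of 11.1 (rank 8012) at chromosome 5, 146182326 to 146183008, with the summit 177 bp downstream in intron 1. RARS1, the arginine enzyme, had a fold of 12.0 (rank 7090) at chromosome 5, 168486290 to 168486596. FARSA, the alpha subunit of the phenylalanine enzyme, had a fold of 13.3 (rank 5521) at chromosome 19, 12933528 to 12933907. Its start lay 4218 bp from a TRRAP peak with a fold of 24.9, the closest TRRAP peak to any synthetase gene without a promoter peak.

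Most cytosolic genes with both peaks lay in the middle of the family's CHD8 range. The CHD8 and TRRAP folds were 15.9 and 13.9 at VARS1, 17.3 and 14.9 at YARS1, and 14.2 and 12.0 at TARS1, the threonine enzyme. They were 12.8 and 10.6 at AARS1, the alanine enzyme, and 12.0 and 10.6 at IARS1, the isoleucine enzyme. The CHD8 peak of IARS1 lay at chromosome 9, 92293604 to 92294230 (rank 6815), and its TRRAP peak at 92293548 to 92293963 (rank 3922). TARS3, another cytosolic threonine enzyme, had 11.5 and 11.0, and FARSB had 11.5 and 10.1. GARS1 had the same CHD8 fold as VARS1, 15.9, with a lower TRRAP fold of 8.65.

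The weakest cytosolic CHD8 peaks were at NARS1, SARS1 and QARS1, which charge asparagine, serine and glutamine tRNAs. NARS1 had a fold of 7.98 (rank 14955, chromosome 18, 57621550 to 57622035), SARS1 a fold of 8.43 (rank 13818, chromosome 1, 109213685 to 109214116) and QARS1 a fold of 8.43 (rank 13600, chromosome 3, 49104598 to 49105219). Their summits lay close to the start, 31 bp downstream at NARS1, 35 bp upstream at SARS1 and 164 bp upstream at QARS1. SARS1 had a second CHD8 peak in intron 1, at 109214295 to 109214539, with a fold of 7.54. That weaker peak, and not the one at the start, overlapped the TRRAP peak of SARS1.

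Mitochondrial synthetase genes held 6 of the 9 synthetase CHD8 peaks among the strongest 10% of the list. EARS2, the mitochondrial glutamate enzyme, had the highest fold of the family, 32.7 (rank 501), at chromosome 16, 23557131 to 23558132, with the summit 353 bp upstream. SARS2 had a fold of 28.3 (rank 768) at chromosome 19, 38930261 to 38930889, with the summit in coding exon 1. FARS2 had a fold of 25.7 (rank 970) at chromosome 6, 5260340 to 5261849, a peak of 1510 bp that was the widest of the family's strongest peaks. TARS2 (24.8, rank 1083, chromosome 1, 150487105 to 150487629), YARS2 (23.5, rank 1222, chromosome 12, 32755164 to 32756047) and LARS2 (23.0, rank 1317, chromosome 3, 45388381 to 45388822) followed. YARS2 and LARS2 had no TRRAP promoter peak. At the other end, PARS2 had a fold of 7.98 (rank 14960, chromosome 1, 54764291 to 54764774), VARS2 8.87 (rank 13402, chromosome 6, 30914278 to 30914464) and NARS2 8.87 (rank 12362, chromosome 11, 78574351 to 78575099). Among the strongest CHD8 peaks of each gene, the VARS2 peak was the narrowest, at 187 bp, and did not reach the start site. MARS2 (fold 10.6, rank 8959, chromosome 2, 197705120 to 197705576) and RARS2 (10.6, rank 8897, chromosome 6, 87589839 to 87590349) also had CHD8 alone. Between them and the strongest genes lay AARS2 (13.3), CARS2 (14.6), IARS2 (15.5), HARS2 (16.4, a peak shared with HARS1) and WARS2 (17.3).

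The median CHD8 fold was 15.9 over the mitochondrial genes (range 7.98 to 32.7, n = 16) and 13.1 over the cytosolic genes (7.98 to 29.2, n = 20), so the ranges overlapped almost completely. Over all 11208 genes with a CHD8 promoter peak the median was 12.0. The strongest 10% of the CHD8 list supplied 25.0% of the synthetase peaks and 19.8% of those at all genes with CHD8.

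**Figure D2:**
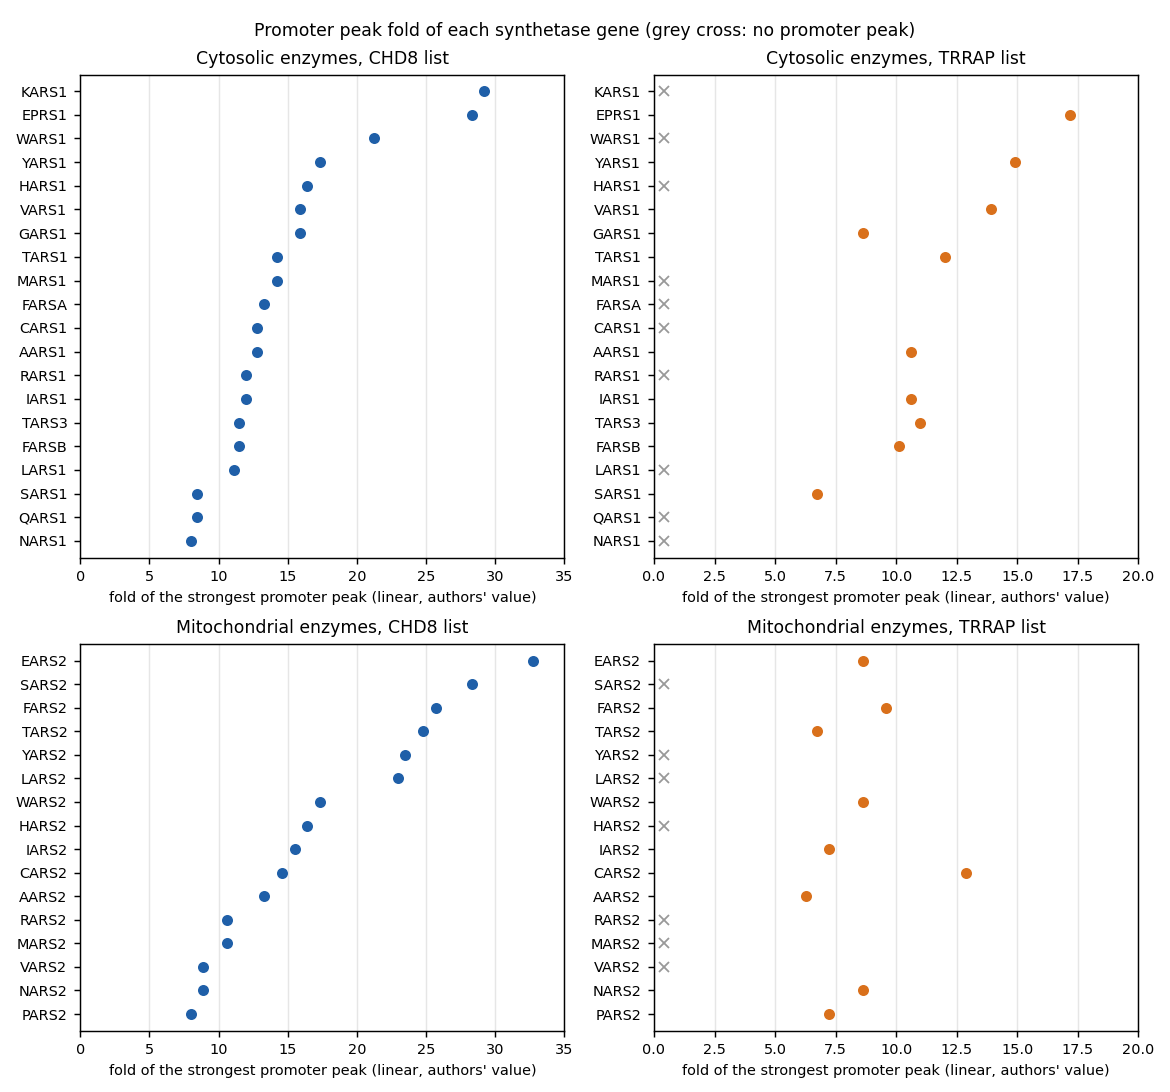
Fold of the strongest promoter peak of each gene in the CHD8 list (left) and the TRRAP list (right), as deposited, on a separate linear axis for each list; grey crosses mark genes without a TRRAP promoter peak. CHD8 folds ran from 7.98 to 32.7, and several genes with high CHD8 folds, KARS1 and SARS2 among them, had no TRRAP promoter peak.

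The order of the TRRAP peaks differed in part from that of the CHD8 peaks. EPRS1 had the strongest TRRAP peak of the family, with a fold of 17.2 (rank 1132) at chromosome 1, 220046469 to 220046746, and the summit 88 bp upstream. It was followed among the cytosolic genes by YARS1 (fold 14.9, rank 1613, chromosome 1, 32817240 to 32818306) and VARS1 (fold 13.9, rank 2003, chromosome 6, 31795564 to 31795903), which charge tyrosine and valine tRNAs. The weakest cytosolic peaks were at SARS1 (fold 6.73, rank 12307, chromosome 1, 109214292 to 109214416), GARS1 (8.65, rank 6916, chromosome 7, 30594725 to 30594923) and FARSB (10.1, rank 4572, chromosome 2, 222656261 to 222656525). GARS1 encodes the glycine enzyme and FARSB the beta subunit of the phenylalanine enzyme. FARSA had no TRRAP promoter peak, so the genes of the paired subunits differed in listed TRRAP.

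Among the mitochondrial genes, the strongest TRRAP peaks were at CARS2 (fold 12.9, rank 2352, chromosome 13, 110706014 to 110706488), FARS2 (9.60, rank 4898, chromosome 6, 5260790 to 5261337) and EARS2 (8.65, rank 6362, chromosome 16, 23557277 to 23557803). The weakest were at AARS2 (6.26, rank 13651, chromosome 6, 44313196 to 44313320), TARS2 (6.73, rank 12311, chromosome 1, 150487201 to 150487325) and PARS2 (7.21, rank 10181, chromosome 1, 54764258 to 54764462), the proline enzyme. IARS2 (7.21), NARS2 (8.65) and WARS2 (8.65) lay between. TARS2 thus had a CHD8 peak among the strongest 10% of its list and a TRRAP peak near the weak end of its list. The median TRRAP fold was 10.8 over the 10 cytosolic genes with a peak (range 6.73 to 17.2) and 8.65 over the 9 mitochondrial genes (6.26 to 12.9). These values describe only genes that passed the list's threshold. The median over all 7000 genes with a TRRAP promoter peak was 8.65.

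The CHD8 folds of genes with TRRAP and of genes without it overlapped over most of their range. The median CHD8 fold was 14.6 at the 19 synthetase genes with TRRAP (7.98 to 32.7) and 13.3 at the 17 without (7.98 to 29.2). Over all genes with CHD8 the medians were 13.3 with TRRAP and 10.6 without. Of the 9 synthetase genes whose CHD8 peak was among the strongest 10%, 4 had TRRAP (44.4%), namely EARS2, EPRS1, FARS2 and TARS2. Over all genes with so strong a CHD8 peak, 76.2% had TRRAP, and with 9 synthetase genes no reading of this contrast is made. Among the 9, the strongest peaks of KARS1 and WARS1 had summits 1038 and 1065 bp upstream. Those of EARS2, FARS2 and SARS2 also touched the window of a neighbour. Across the 19 genes with both peaks, the rank correlation of the folds was 0.23 (Spearman), with 0.73 over the 10 cytosolic and 0.26 over the 9 mitochondrial genes. These are descriptions across genes of the same pair of libraries, and many folds are tied.

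**Figure D3:**
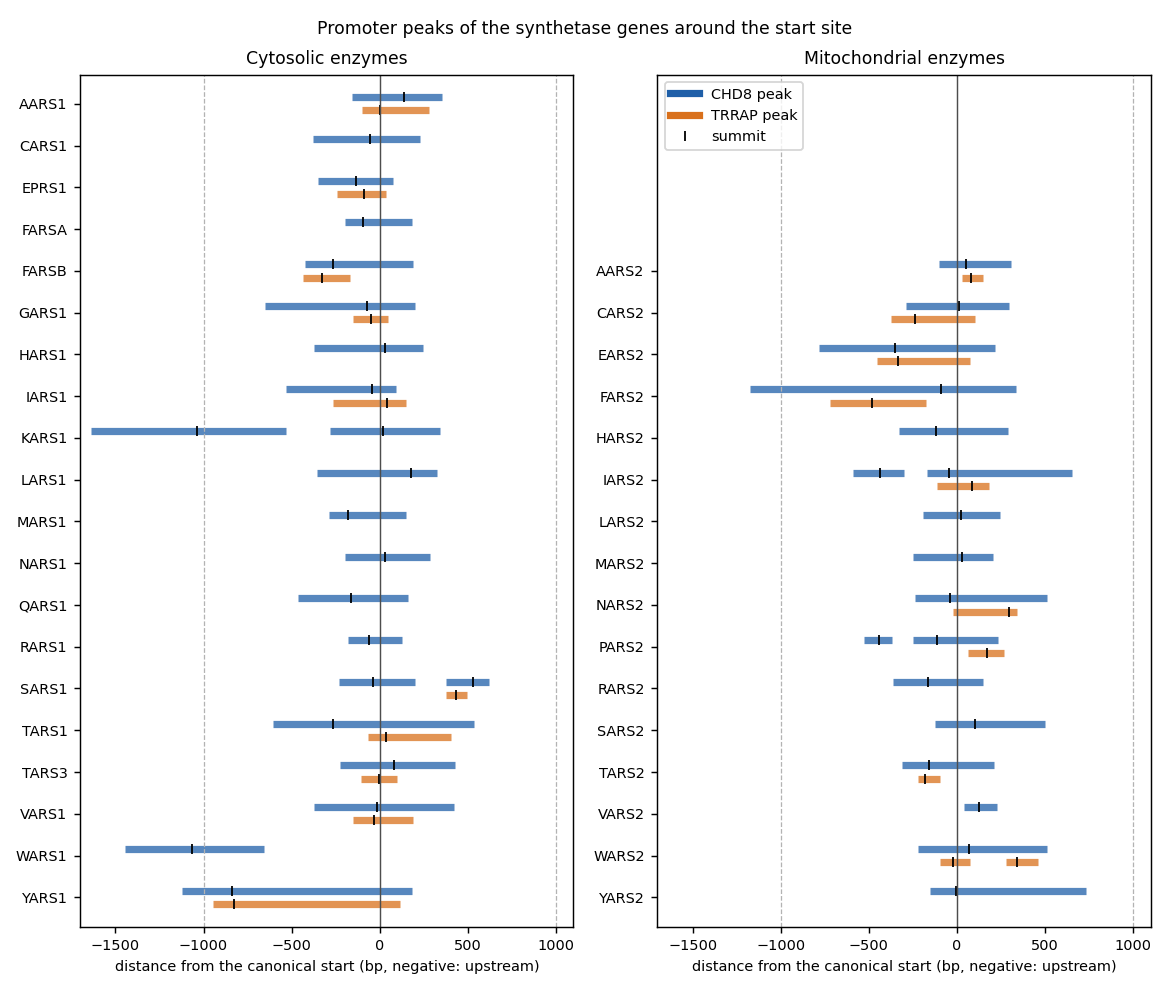
CHD8 peaks (blue) and TRRAP peaks (orange) reaching within 1 kb of the canonical start (dashed lines), drawn to scale by distance from the start in bp, with a black tick at each summit. CHD8 peaks covered the start at 34 of 36 genes, WARS1 and VARS2 being the exceptions, and TRRAP peaks lay mostly inside the CHD8 peaks. Over all genes, too, TRRAP promoter peaks were narrower (median 269 bp, against 638 bp for CHD8).

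CHD8 summits lay close to the start sites. The CHD8 summit lay within 200 bp of the start at 30 of 36 genes (83.3%), beside 68.7% of all genes with CHD8, and the median summit was 50.5 bp upstream (−50.5 bp). The TRRAP summit lay within 200 bp at 12 of 19 genes (63.2%), beside 62.3% of all genes with TRRAP. CHD8 peaks covered the start site itself at 34 genes and TRRAP peaks at 13. TRRAP promoter peaks were the narrower ones over all genes too, with a median width of 269 bp, against 638 bp for CHD8. The strongest TRRAP peak was narrower than the strongest CHD8 peak at all 19 synthetase genes with both. At 14 of them it lay wholly inside the CHD8 peak, a share not counted over all genes. The summits of these pairs were a median of 90.0 bp apart, from 15 bp at YARS1 to 469 bp at SARS1. The CHD8 peak of YARS1 lay at chromosome 1, 32817175 to 32818482 (rank 2576). At YARS1 both summits lay far upstream, 841 bp for CHD8 and 826 bp for TRRAP, beyond the start of its neighbour S100PBP.

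TRRAP was next set side by side for the 16 amino acids with a listed enzyme in each compartment, as a description of which enzymes carried it. TRRAP was at the genes of both compartments for 5 of them, alanine (AARS1, AARS2), glutamate (EPRS1, EARS2), isoleucine (IARS1, IARS2), proline (EPRS1, PARS2) and threonine (TARS1, TARS3, TARS2). It was at neither for 4, namely histidine, leucine, methionine and arginine. It was at the cytosolic gene only for serine, tyrosine and valine, and at the mitochondrial gene only for asparagine, cysteine and tryptophan. Phenylalanine was mixed, with FARSB and FARS2 carrying TRRAP and FARSA not. EPRS1 enters 2 of these pairs. HARS1 and HARS2 start 85 bp apart and share nearly the same window, so the histidine pair could hardly differ.

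All 7 listed genes of the multi-synthetase complex had CHD8, beside 55.9% of all protein-coding genes, and 2 of them had TRRAP. Those with TRRAP were EPRS1 and IARS1 (28.6%, 8.22 to 64.1), with folds of 17.2 and 10.6. TRRAP was at 34.9% of all protein-coding genes and at 60.7% of genes with CHD8, and both shares lay inside that interval. KARS1, LARS1, MARS1, QARS1 and RARS1 had CHD8 alone, with CHD8 folds of 29.2, 11.1, 14.2, 8.43 and 12.0. Of the 13 cytosolic enzymes outside the complex, 8 had TRRAP (61.5%, 35.5 to 82.3). The difference was −33.0 percentage points with an interval of −62.0 to 11.1, which includes 0. Of the scaffold genes, AIMP1 (CHD8 fold 25.7, TRRAP fold 9.12) and AIMP2 (11.1 and 6.26) had both peaks, and EEF1E1 (15.5) had CHD8 alone. Their CHD8 peaks lay at chromosome 4, 106316005 to 106316807 (AIMP1, rank 989), chromosome 7, 6008735 to 6009687 (AIMP2, rank 7862) and chromosome 6, 8102126 to 8102848 (EEF1E1, rank 3543). The TRRAP peaks lay at 106316187 to 106316679 (AIMP1, rank 5614) and 6009316 to 6009511 (AIMP2, rank 12892).

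EPRS1 is the member of the complex with the strongest TRRAP peak and IARS1 is the other with TRRAP, so the 200 bases before their starts are given. EARS2, with the strongest CHD8 peak of the family, is added. Its CHD8 and TRRAP summits lay 353 and 336 bp upstream, outside the bases shown. Capitals mark the E-box CACGTG, the ETS word CCGGAAGT and the response element. The stretch at EPRS1 held none of the words searched apart from GGGCGG, which is left in lower case there. At IARS1 and EARS2 the NFY word (CCAAT, or ATTGG on the other strand) is also left in lower case.
EPRS1 (chr1:220046506-220046705, minus strand): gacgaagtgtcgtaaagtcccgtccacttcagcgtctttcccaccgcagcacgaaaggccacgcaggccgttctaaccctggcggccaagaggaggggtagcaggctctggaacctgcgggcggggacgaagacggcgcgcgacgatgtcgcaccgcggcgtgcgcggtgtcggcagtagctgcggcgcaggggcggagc
IARS1 (chr9:92293698-92293897, minus strand): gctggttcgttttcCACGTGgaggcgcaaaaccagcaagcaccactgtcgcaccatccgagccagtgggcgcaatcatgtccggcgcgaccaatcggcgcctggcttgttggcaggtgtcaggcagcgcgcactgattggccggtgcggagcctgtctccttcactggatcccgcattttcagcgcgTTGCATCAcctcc
EARS2 (chr16:23557351-23557550, minus strand): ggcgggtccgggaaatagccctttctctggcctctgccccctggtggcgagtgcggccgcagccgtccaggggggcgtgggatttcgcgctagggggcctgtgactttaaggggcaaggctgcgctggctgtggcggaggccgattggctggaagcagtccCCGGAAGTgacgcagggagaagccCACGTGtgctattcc

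Several synthetase genes share a promoter with a gene read in the opposite direction. A protein-coding start on the other strand lay within 1 kb upstream at 8 of 36 genes (22.2%, 11.7 to 38.1), beside 9.46% of all protein-coding genes. The share was 13.1% of CpG-rich genes, inside that interval. It was 15.1% of cytosolic ribosomal protein, 33.3% of mitochondrial ribosomal protein and 16.7% of translation initiation factor genes, inside it too. The 8 include HARS1 and HARS2, which are each other's neighbour. HARS1 and HARS2, the cytosolic and mitochondrial histidine enzymes, start 85 bp apart on opposite strands and share a single CHD8 peak at chromosome 5, 140691124 to 140691743 (fold 16.4, rank 3097), without TRRAP. The other neighbours were TERF2IP (KARS1, 108 bp), S100PBP (YARS1, 295 bp), UBFD1 (EARS2, 377 bp), LYRM4 (FARS2, 563 bp), ORC3 (RARS2, 148 bp) and MRPS12 (SARS2, 181 bp). MRPS12 encodes a protein of the mitochondrial ribosome, LYRM4 a factor of iron-sulfur cluster assembly and ORC3 a subunit of the origin recognition complex. All of these neighbours had CHD8 promoter peaks, and TRRAP was at both genes of the pair (YARS1, EARS2 and FARS2) or at neither. The starts of a pair lie 85 to 563 bp apart, so its 1 kb windows share most of their bases. This agreement was thus largely set in advance by the window rule. The strongest CHD8 peak of each of these genes touched the window of the neighbour too, so it cannot be assigned to either gene. The median CHD8 fold was 21.5 at these 8 genes (10.6 to 32.7) and 13.1 at the other 28 (7.98 to 28.3). Over all genes with CHD8 the same medians were 15.1 and 11.5.

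The 84 bases between the HARS1 and HARS2 starts are given on the HARS1 strand because 1 CHD8 peak covers both starts. Capitals mark the ETS word, which occurs once on each strand close to either start.
HARS1-HARS2 (chr5:140691371-140691454, minus strand): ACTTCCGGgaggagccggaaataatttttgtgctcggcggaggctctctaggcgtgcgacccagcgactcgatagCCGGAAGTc

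The response element was the word, of those searched, whose share differed most between the compartments. It was present at 8 of 20 cytosolic promoters (40.0%, 21.9 to 61.3), at 1 of 16 mitochondrial promoters (YARS2, 6.25%, 1.11 to 28.3) and at 2.50% of all protein-coding promoters. Among all CpG-rich promoters its share was 1.11%, and among all promoters with CHD8 it was 1.21%. In 7 of the 8 cytosolic genes, all except GARS1, the matched letters were TTGCATCA or the reverse complement TGATGCAA. At 7 of the 8, all except AARS1, the element lay within 35 bp of the start and inside a CHD8 peak. Its centre was 13 bp from the CHD8 summit at NARS1, 33 bp at IARS1 and 42 bp at GARS1, and 848 bp from it at YARS1. TRRAP was listed at 5 of the 8 genes (AARS1, GARS1, IARS1, TARS1 and YARS1), and the element lay inside the TRRAP peak at 4 of them, all except AARS1. The element was thus present at 5 of 19 synthetase genes with TRRAP (26.3%) and 4 of 17 without (23.5%).

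The other words were searched in the same window, namely CRE (TGACGTCA), NFY (CCAAT), SP (GGGCGG), YY1 (AAGATGGC), E2F (TTTCCCGC or TTTGGCGC) and BANP (TCTCGCGA), with the E-box and the ETS and NRF1 words. A pair of different words overlapped at 1 gene, the ETS and SP words of CARS1. The E-box, the word of MYC with its partner MAX, was at 4 of 36 synthetase promoters (IARS1, VARS1, EARS2 and MARS2), beside 8.76% of all promoters. The E2F word was at RARS2 only, beside 3.08% of all promoters. The NRF1 word was at 3 of 16 mitochondrial genes (18.8%, 6.59 to 43.0) and 0 of 20 cytosolic genes (0 to 16.1), beside 4.27% of all promoters, and none of MARS2, VARS2 and YARS2 had TRRAP (0 of 3, 0 to 56.1). Of all genes with CHD8 and this word, 57.8% had TRRAP. The YY1 word was at KARS1, NARS1, FARSA, WARS2, YARS2 and SARS2, beside 4.04% of all promoters, and of these 6 only WARS2 had TRRAP (1 of 6, 3.01 to 56.4). Of all genes with CHD8 and this word, 60.6% had TRRAP, and with so few synthetase genes no reading of either count is made. The ETS word was at HARS1, CARS1, NARS1, PARS2, HARS2 and EARS2, beside 6.14% of all promoters, and the 2 matches at HARS1 and HARS2 are the same bases. A match is a description of the letters, and occupancy by the factors was not measured.

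**Figure D4:**
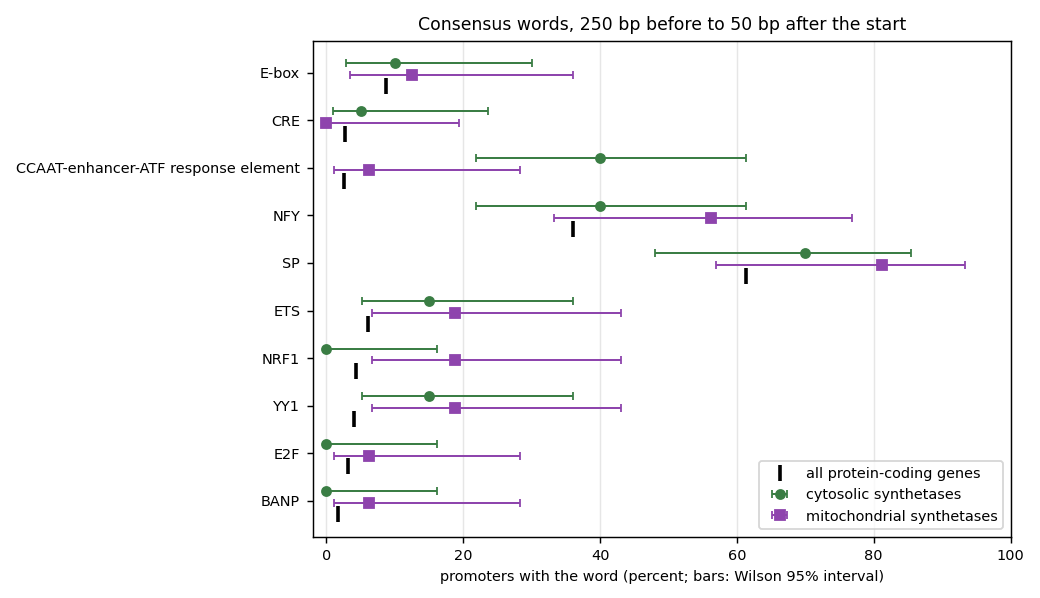
Percent of promoters with each consensus word (250 bp before to 50 bp after the start) for cytosolic genes (circles, n = 20) and mitochondrial genes (squares, n = 16), with Wilson 95% intervals, and for all 20033 protein-coding genes (black ticks). The response element was at 40.0% of cytosolic promoters and 2.50% of all promoters.

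Genes that act beside the synthetases are given with the same readout, where CHD8 was at 55.9% and both peaks were at 34.0% of all protein-coding genes. The amidotransferase that makes mitochondrial glutaminyl-tRNA is encoded by GATB (CHD8 fold 13.7), GATC (15.9) and QRSL1 (23.0), and of these only GATC had TRRAP (10.6). Among the other charging enzymes, MTFMT, which formylates initiator methionyl-tRNA in mitochondria, and SEPSECS had CHD8 alone, and PSTK had both peaks. SEPSECS and PSTK make selenocysteinyl-tRNA. Of 13 genes of the amino acid response, 12 had CHD8 and 9 had both peaks (69.2%, 42.4 to 87.3). At ATF4 itself the CHD8 fold was 25.2 and the TRRAP fold 18.7. DDIT3, a stress transcription factor, had the highest TRRAP fold of that list, 20.6. ASNS (asparagine synthetase), CHAC1 and CEBPB had CHD8 alone, and SLC7A11, a cystine transporter gene, had neither.

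Other translation genes, taken by symbol, gave the setting for these shares. CHD8 was at 82 of 86 cytosolic ribosomal protein genes (95.3%, 88.6 to 98.2), 77 of 78 mitochondrial ribosomal protein genes (98.7%, 93.1 to 99.8) and 43 of 48 translation initiation factor genes (89.6%, 77.8 to 95.5). TRRAP was at 65.1%, 52.6% and 60.4% of them, respectively. Each of these TRRAP shares lay inside the synthetase interval of 37.0 to 68.0, so no difference from them was detectable with 36 genes. As a check of the cell label, all 6 neural stem cell markers (SOX2, NES, PAX6, SOX1, VIM and FABP7) had a CHD8 promoter peak, against 1 of 11 markers of other cell types (SYT1). The marker lists differed in CpG content too, with 83.3% and 27.3% of their genes CpG-rich, and the part of CpG content in this contrast was not tested.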

How the data were processed

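Per the submitters' processing notes, reads were aligned with HISAT2 to GRCh38 and peaks were called with MACS2 2.1.1.20160309. The control and filters are not given in the sources used here. The deposited lists, 1 per library and not pooled, give each peak's fold (a linear ratio of the authors) and its −log10 p and −log10 q values. The deposited score equals 10 times the −log10 q, rounded down, in all peaks. Per the file names, the false discovery rate was 0.0001 for CHD8 and 0.001 for TRRAP. All 84 and 88 sequence names were found in the reference, and 0 peaks ran past a sequence end.

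Peaks were ranked within a list by −log10 q, with ties broken by fold, width and position. Starts were those of canonical GENCODE release 44 transcripts on chromosomes 1 to 22, X and Y. A gene's strongest promoter peak gave its values. Words were searched without mismatch and checked on planted sequences. Every synthetase gene is named with its class. Fold, rank and coordinates are given for genes lacking TRRAP, the strongest and weakest 3 per compartment and list, the complex with its scaffolds and genes with shared promoters. Positions are counted from 1. The synthetase genes, gene lists and words were chosen with earlier results of these data known. Python 3.11.15, pandas 2.3.3, scipy 1.17.1, pysam 0.24.0 and samtools 1.23.1 were used. Alternatives covered the window, start sites, peak rank, q-value, compartment of GARS1 and KARS1, overlap rule and word window.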

Additional observations from a re-analysis of the deposited data

How the results depend on the processing

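Of 212 combinations of 46 results with an alternative setting, 206 stayed inside the 95% interval of the reported value and 6 moved outside it. This count does not measure robustness. Some combinations could not move, such as CHD8 shares under a stricter TRRAP q-value. The intervals are also wide: the compartment difference for TRRAP turned from −6.25 to 13.8 points and still counted as inside. Restriction to peaks above the median rank gave CHD8 at 83.3% of all synthetase genes and both peaks at 36.1%, and for the mitochondrial genes it gave TRRAP at 31.2% and both peaks at 25.0%. All protein-coding genes gave 42.5% (CHD8), 19.5% (TRRAP) and 16.7% (both) under that restriction, which shortens each list. CHD8 was lost there at NARS1, QARS1, SARS1, NARS2, PARS2 and VARS2, and TRRAP at SARS1, AARS2, IARS2, PARS2 and TARS2. Words were also searched in a longer window, from 500 bp before to 100 bp after the start. The NFY word was then at 81.2% of mitochondrial and the SP word at 90.0% of cytosolic promoters. In that window they were at 52.8% and 68.5% of all promoters, and at 50.5% and 87.1% of CpG-rich ones. In the main window these shares were 56.2% (NFY, mitochondrial) and 70.0% (SP, cytosolic), beside 36.1% and 61.3% of all promoters. Counting HARS1 and HARS2 once, an alternative chosen after seeing the data, gave TRRAP at 54.3% of 35 genes. No paired analysis was possible because each antibody had 1 library. The unknown read depth and the single library limit every statement on a missing peak.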

Other observations

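Away from their own promoters, 6 of the synthetase genes held peaks inside the annotated gene span. This share was not counted over all genes, so it cannot be called high or low. SARS1 had a CHD8 peak (fold 13.7) and a TRRAP peak (fold 13.4) in intron 4, at chromosome 1, 109229554 to 109230241 and 109229757 to 109230212, and both folds exceeded those at its promoter (8.43 and 6.73). FARS2 had weak peaks of both lists in intron 4, 210363 bp downstream of the start for the CHD8 summit. LARS2 (intron 15, fold 6.22) and NARS2 (intron 9, fold 7.54) had CHD8 alone there. The peaks in the spans of AARS1 and CARS2 lay at the promoters of EXOSC6 and ING1.

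Synthetases fall into class I and class II by the fold of their catalytic domain. This grouping was looked at after the values were seen, and EPRS1, which holds a domain of each class, was left out. TRRAP was at 7 of 18 class I genes (38.9%, 20.3 to 61.4) and 11 of 17 class II genes (64.7%, 41.3 to 82.7), and the intervals overlap. The share was 34.9% over all protein-coding genes and 60.7% over genes with CHD8, and the latter lay inside both intervals.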
